A study of Homo sapiens with 6 samples.

Results

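Developmental transcription factors outside the HOX clusters are the proteins that set cell identity in the embryo. The set described here holds 48 named genes of the PAX, GATA, SOX, LIM homeobox (LHX), OTX, sine oculis homeobox, EYA, OSR, T-box, FOX, NKX, IRX, MEIS, MSX, DLX, SALL and ZIC families, together with WT1. Its members were every array probe set whose only annotated gene symbol was one of the 48 names, and each gene was represented by its brightest probe set over all arrays. This gave 114 probe sets for 47 genes, of 19775 genes with such a probe set on the array, and FOXC1 had none. Of the 47 genes, 39 had a probe set bright enough to be tested, among 12318 tested genes in all.

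The samples were 6 cultures of Flp-In T-REx 293 cells, which were made from HEK293, a line of human embryonic kidney, to take up a transgene at 1 chosen genomic site. All 6 carried a stable inducible GFP transgene that was left off. In 3 cultures, 1 for each of clones 1, 2 and 3, siRNAs against TET1, TET2 and TET3 were given together. The other 3 cultures, again 1 per clone, received a pool of non-targeting siRNAs, and total RNA was taken after 96 h in both groups. RNA was hybridised to one-colour Affymetrix arrays, 1 per culture. Values are MAS5 signals, a probe set's brightness on a linear scale set so that each array has a trimmed mean of 1000, and differences are in log2 signal, TET siRNA minus control. A probe set was tested where it belonged to the brighter 50% over all 6 arrays, here called the filter, and was called where limma gave a p under 0.05 after Benjamini-Hochberg adjustment over all tested probe sets. The same fit with a term for each clone is named the fit with the clone as a block. The labels do not say whether the cultures of a clone were treated on separate occasions, so p-values measure the spread between these 6 arrays. Precision is limited throughout by the number of arrays.

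TET1, TET2 and TET3 are dioxygenases that oxidise 5-methylcytosine in DNA, a first step in removing methylation from CpG sites. Promoters of developmental regulators are often rich in CpG and are held silent by Polycomb complexes in cells that do not use them, and changes in their DNA methylation are a known feature of cells without TET enzymes. HEK293 cells descend from embryonic kidney and are known to express both renal and neuronal genes, so a share of these regulators is active in the line. The comparison asks whether transcript signals of these regulators were altered 96 h after siRNAs against all 3 TET genes were given. The arrays measure neither TET protein nor DNA methylation.

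The sequences below are the 300 bases from 250 before to 50 after the annotated transcription start, from RefSeq on GRCh38.p14, read 5′ to 3′ on the gene's strand, with every CpG dinucleotide in capitals. MSX1 (chr4:4859415-4859714, plus strand), LHX2 (chr9:124011518-124011817, plus strand) and GATA6 (chr18:22169339-22169638, plus strand) are shown because they were called in a test between clones. The GATA6 call was lost under several alternatives in processing. SIX4 (chr14:60724302-60724601, minus strand) is shown because its gene-level p between treatments was the lowest of the members, and SOX4 (chr6:21593501-21593800, plus strand) because it had the highest signal.
MSX1: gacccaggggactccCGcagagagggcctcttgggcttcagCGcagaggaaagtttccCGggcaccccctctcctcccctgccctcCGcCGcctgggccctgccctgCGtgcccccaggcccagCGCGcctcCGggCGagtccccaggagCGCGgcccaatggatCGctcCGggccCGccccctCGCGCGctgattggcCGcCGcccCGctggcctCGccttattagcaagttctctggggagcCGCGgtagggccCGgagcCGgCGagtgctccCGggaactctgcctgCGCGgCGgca
LHX2: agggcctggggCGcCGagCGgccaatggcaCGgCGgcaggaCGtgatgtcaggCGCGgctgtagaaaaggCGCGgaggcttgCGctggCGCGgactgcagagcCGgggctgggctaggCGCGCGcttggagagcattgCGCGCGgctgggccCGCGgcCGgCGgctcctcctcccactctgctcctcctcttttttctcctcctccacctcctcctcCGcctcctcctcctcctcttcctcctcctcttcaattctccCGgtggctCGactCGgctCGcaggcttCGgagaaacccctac
GATA6: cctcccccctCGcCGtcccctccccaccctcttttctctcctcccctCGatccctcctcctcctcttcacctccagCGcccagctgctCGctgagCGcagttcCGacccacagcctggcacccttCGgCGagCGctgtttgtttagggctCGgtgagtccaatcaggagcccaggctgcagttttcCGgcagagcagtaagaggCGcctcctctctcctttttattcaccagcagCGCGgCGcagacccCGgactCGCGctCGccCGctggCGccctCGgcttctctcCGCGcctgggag
SIX4: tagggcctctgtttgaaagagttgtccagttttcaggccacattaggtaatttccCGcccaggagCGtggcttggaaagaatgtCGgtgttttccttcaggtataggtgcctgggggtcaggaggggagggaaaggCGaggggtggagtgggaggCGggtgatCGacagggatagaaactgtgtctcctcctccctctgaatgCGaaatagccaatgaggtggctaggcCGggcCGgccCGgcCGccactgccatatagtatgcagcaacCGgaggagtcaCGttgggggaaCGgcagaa
SOX4: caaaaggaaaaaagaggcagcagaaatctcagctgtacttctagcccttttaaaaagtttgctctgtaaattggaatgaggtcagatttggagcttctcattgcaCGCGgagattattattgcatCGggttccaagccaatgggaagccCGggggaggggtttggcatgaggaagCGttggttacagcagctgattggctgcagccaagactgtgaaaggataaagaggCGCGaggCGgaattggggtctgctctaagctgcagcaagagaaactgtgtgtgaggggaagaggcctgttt
The first 3 windows hold 31, 30 and 25 CpG dinucleotides in the order MSX1, LHX2 and GATA6. The SIX4 window holds 14 and the SOX4 window 8.

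Promoter windows were found by symbol for 31 of the 48 members, 54 windows in all. The other 17 members are IRX3, IRX5, SOX9, SOX11, SOX17, SALL1, SALL4, TBX2, TBX3, OSR1, OSR2, NKX2-5, DLX5, LHX1, EYA1, FOXF1 and GATA4. Member windows held a median of 20 CpG dinucleotides, with a range of 3 (SALL2) to 40 (FOXC1), against a median of 14 in all 35116 windows and 25 in windows of all tested genes. At least 20 CpG were present in 51.9% of member windows, 41.2% of all windows and 65.6% of windows of tested genes. PAX6 (9 windows), GATA3 (6) and WT1 (4) weigh heavily in these figures. With the mean of a gene's windows as 1 value per gene, the median was 23 CpG over 31 members, 14 over all genes with a window and 26 over tested genes. The SP1 box GGGCGG, read on both strands, occurred in 51.9% of member windows, 45.0% of all windows and 65.6% of windows of tested genes, and it contains a CpG itself. The TATA box TATAAA, read on both strands, occurred in 3.7% of member windows (1 of GATA3 and 1 of NKX2-2), 11.5% of all windows and 6.32% of windows of tested genes. These letter matches are descriptions and say nothing on binding by a factor.

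**Figure D1:**
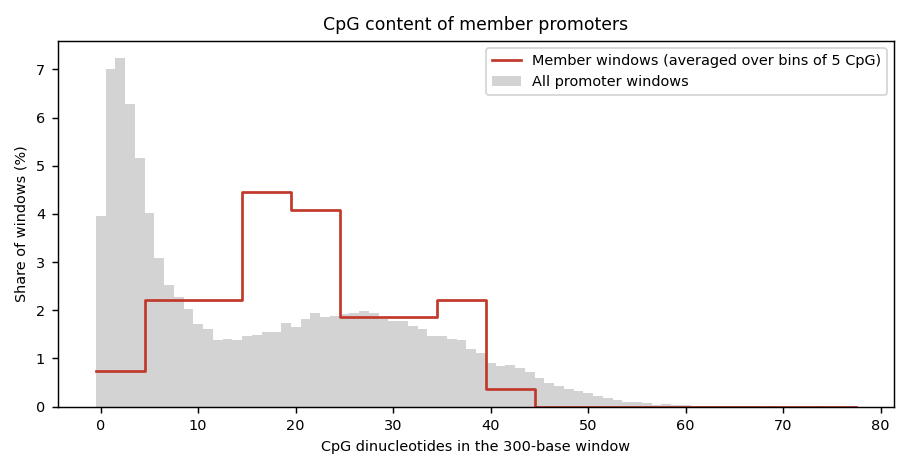
CpG dinucleotides per 300-base promoter window (horizontal axis) against the share of windows in percent (vertical axis), for member windows (red line, averaged over bins) and all windows (grey bars). Most member windows lie to the right of the low-CpG peak of all windows, at a median of 20 against 14.

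All 3 siRNA targets had lower signals in the TET siRNA cultures than in their control cultures. TET1 averaged 585 ± 123 in TET siRNA cultures and 3222 ± 216 in control cultures (MAS5 signal, SD, n = 3 each), so 17.9% of its signal was left (log2 difference -2.48, limma adjusted p = 0.00225). TET2 averaged 380.4 ± 85.5 in TET siRNA cultures and 801 ± 78.6 in control cultures, with 46.8% left (adjusted p = 0.198, or 0.00468 with the clone as a block in limma). TET3 averaged 545.4 ± 44.8 in TET siRNA cultures and 1276 ± 159.8 in control cultures, with 42.9% left (adjusted p = 0.0678, or 0.00205 with the block). HEK293 markers were all 7 above the filter, with VIM at a geometric mean signal of 35630 over the 6 arrays, KRT18 at 9304 and NEFL at 20870. The dimmest of them were NEFM at 270 and PAX2 at 282.2, and PAX2 is itself a member. Among 18 markers of leukocytes, hepatocytes, erythroid cells, endothelium, fibroblasts and astrocytes, 15 had a probe set and 4 (HBB, PECAM1, COL1A1 and AQP4) passed the filter, with none called between treatments (limma adjusted p of at least 0.838, and of at least 0.342 with the block). In bulk RNA, fewer cells expressing a gene and less of its RNA per cell cannot be told apart.

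No member was called between TET siRNA and control cultures. Limma without a clone term called 0 of 39 member genes at an adjusted p under 0.05, with 0 at an unadjusted p under 0.05 and a lowest adjusted p of 0.759 (SIX4). With the clone as a block, the counts were 0 and 2, and the lowest adjusted p was 0.242 (SIX4). An unadjusted p under 0.05 was reached by 6.96% of all tested genes without the clone term and by 16.1% with the block, against 0 and 5.13% of the members. Over all genes tested, 0.0162% were called without the clone term, which is 2 genes, and 1.32% with the block, which is 162 genes. At those background shares, 0 calls among 39 genes is no result about the members. At the level of probe sets, 0 of 64 were called in either fit, with 3 (4.69%) at an unadjusted p under 0.05 without the clone term and 6 (9.38%) with the block. Over all tested probe sets these shares were 6.61% and 14.4%.

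Member differences between treatments were small and of mixed direction. Of the 39 tested members, 19 had a higher mean log2 signal in TET siRNA cultures and 20 a lower one, a share of 48.7% higher against 51.9% of all tested genes. The median difference was -0.01 on the log2 scale for members and 0.01 for all tested genes. Differences ran from -0.31 (SIX2, 0.807-fold) to 0.37 (LHX9, 1.29-fold), and 0 members exceeded 0.5 in size, against 3.93% of all tested genes. The 95% limma interval lay within 2-fold in both directions for 39 of 39 members (91.5% of all tested genes) and within 1.5-fold for 31 (65.7% of all tested genes). Counting any excess before rounding, all clones had the higher signal under TET siRNA for 8 members (20.5%, against 19.9% of all tested genes), 1 of them SOX4, whose excess in clone 1 rounds to 0. In the same way all had the lower signal for 7 (17.9%, against 18.0%).

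**Figure D2:**
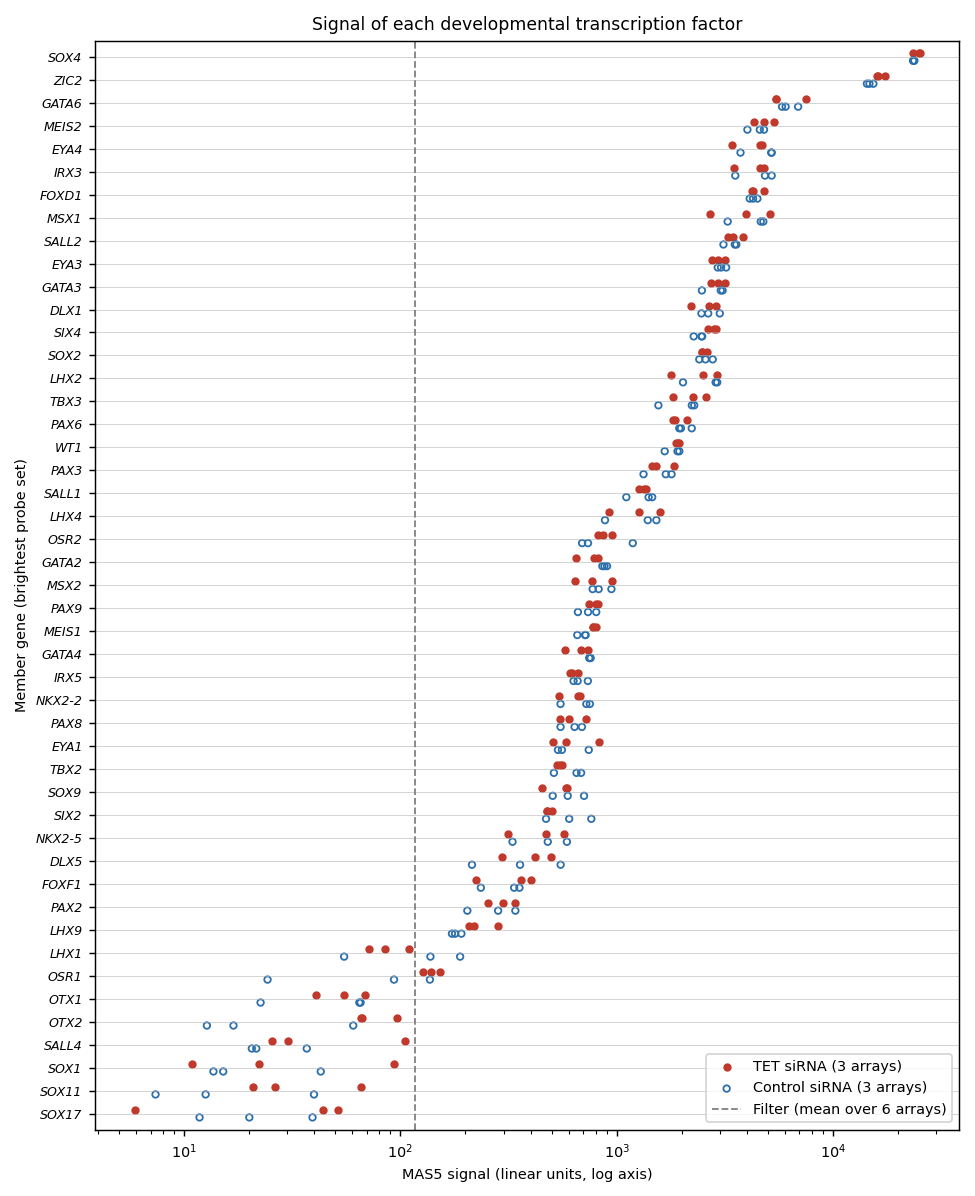
MAS5 signal (log axis) of the brightest probe set of each of 47 members in the 3 TET siRNA arrays (filled red) and the 3 control arrays (open blue), ordered by signal. The dashed line is the filter on the mean over 6 arrays, and 8 members lie below it with widely scattered points.

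Kidney and nephric regulators were measured for 8 of 10 members, and 0 were called in either fit. Of the 8, 6 had a higher and 2 a lower mean log2 signal under TET siRNA, with a median difference of 0.05. FOXD1, a marker of renal stroma, had signals of 4237, 4819 and 4278 in the TET siRNA cultures of clones 1, 2 and 3, against 4121, 4473 and 4269 in the control cultures. These groups overlapped, and the log2 difference was 0.05 ± 0.09 (SE, limma adjusted p = 0.959). WT1, required for nephron formation and podocytes, gave 1876, 1948 and 1926 in TET siRNA cultures, against 1667, 1911 and 1948 in control cultures. The control culture of clone 1 was the lowest of these 6, and the log2 difference was 0.06 ± 0.11 (SE, limma adjusted p = 0.957). SIX2, which maintains nephron progenitors, had the most negative difference of the members. Its signals were 476, 503 and 476 in TET siRNA cultures, against 472, 603 and 764 in control cultures.

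The TET siRNA cultures of SIX2 lay close together while the control cultures spread out, and clone 1 showed no difference (log2 0.01, -0.26 and -0.68 in clones 1, 2 and 3). The mean difference was -0.31 ± 0.19 (SE, limma adjusted p = 0.825, or 0.409 with the block). A second, dim SIX2 probe set had a difference of -0.42 with all TET siRNA arrays below all control arrays (limma adjusted p = 0.839). PAX2 and PAX8, paired-box factors that specify the nephric lineage, differed by 0.13 and -0.01. PAX8 was measured by a single tested probe set. Its other probe sets were all below the filter, at geometric mean signals of 8.16 to 66.8, and differed by -1.06 to 1.48. The brightest of these differed by 0.90, with all TET siRNA arrays above all control arrays. GATA3, a factor of the nephric duct, differed by 0.04, and SALL1, a zinc finger factor of the metanephric mesenchyme, by 0.01. EYA1, a coactivator that partners SIX2, had a mean difference of 0.05 that joined opposite values in clone 1 (-0.55) and clone 3 (0.57).

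Neural and pluripotency-associated factors included the highest signals of the set, and 0 of their 10 tested members were called in either fit. Of the 10, 4 had a higher and 6 a lower mean log2 signal under TET siRNA, with a median of -0.02. ZIC2, a zinc finger factor of forebrain patterning, gave 15890, 16150 and 17330 in TET siRNA cultures, against 14350, 15370 and 14740 in control cultures. All TET siRNA arrays were above all control arrays, the log2 difference was 0.15 ± 0.07 (SE, limma), and the adjusted p was 0.784, or 0.352 with the block. LHX9, a LIM homeobox factor of gonad and brain, gave 282, 219 and 208 in TET siRNA cultures, against 192, 173 and 179 in control cultures. These groups did not overlap either, and the log2 difference was 0.37 ± 0.21 (SE, limma adjusted p = 0.812, or 0.492 with the block). Its signal was the lowest of the tested members, near the filter.

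The other neural factors showed smaller differences, with overlapping groups. SALL2, a zinc finger factor, gave 3449, 3846 and 3260 in TET siRNA cultures, against 3516, 3574 and 3116 in control cultures. SOX2, the pluripotency and neural progenitor factor, gave 2611, 2488 and 2476 in TET siRNA cultures, against 2409, 2780 and 2573 in control cultures. For PAX6, a factor of eye and forebrain, signals were 2116, 1822 and 1859 in TET siRNA cultures, against 1947, 2223 and 1982 in control cultures. Their log2 differences were 0.05, -0.03 and -0.09 in the order SALL2, SOX2 and PAX6. DLX1, a factor of forebrain interneurons, differed by -0.07, and NKX2-2, a factor of the ventral neural tube, by -0.10.

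SOX4, an HMG-box factor of progenitors and many tumours, had 5 tested probe sets that did not give 1 answer. Its brightest gave 23450, 25280 and 24890 in TET siRNA cultures, against 23450, 23550 and 23780 in control cultures, with a difference of 0.06 ± 0.07 (SE, limma adjusted p = 0.929). The next brightest gave 15490, 17050 and 16670 in TET siRNA cultures, against 14340, 13990 and 13620 in control cultures. In this probe set and in the next 2 by signal, all TET siRNA arrays lay above all control arrays. Their differences were 0.23, 0.31 and 0.32, with unadjusted limma p-values of 0.0119, 0.0107 and 0.0213. After adjustment over all tested probe sets these were 0.628, 0.621 and 0.688, and 0.162, 0.122 and 0.188 with the block, so none passed. The dimmest, near the filter at a geometric mean signal of 129.9, ran the other way at -0.44 ± 0.28 (SE, limma) with overlapping groups. At the gene level SOX4 is read from the brightest probe set, which showed the smallest difference of the 5.

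**Figure D3:**
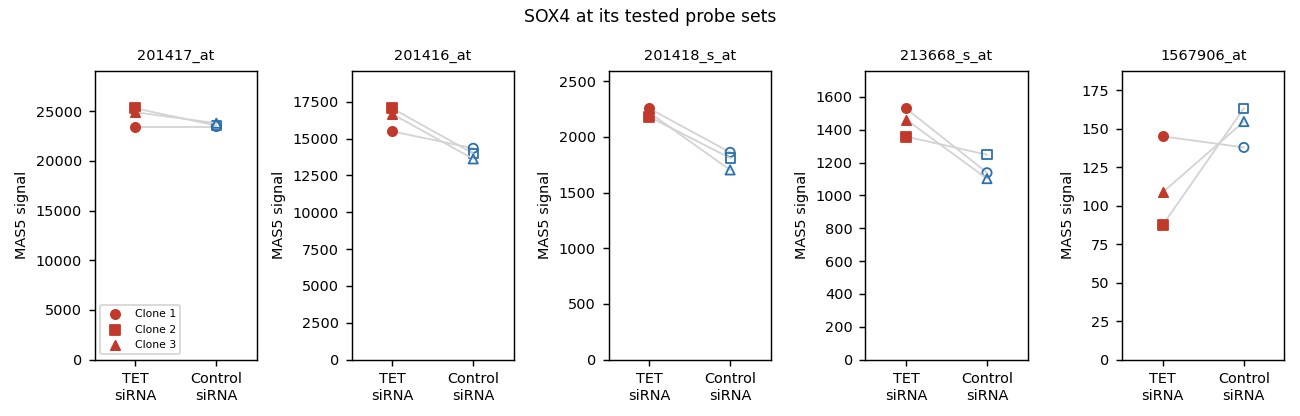
MAS5 signal of SOX4 at its 5 tested probe sets, from the brightest on the left to the dimmest, each panel with its own axis from 0, in TET siRNA (filled red, left) and control (open blue, right) cultures, with lines joining the arrays of a clone. The 3 middle panels have no overlap between treatments and the brightest differs by 0.06 on the log2 scale. The dimmest, near the filter, runs the other way.

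Neural crest, limb and mesoderm regulators formed the largest group, with 17 tested of 18 members and 0 called in either fit. Of the 17, 9 had a higher and 8 a lower mean log2 signal under TET siRNA, with a median of 0.01. SIX4, a homeobox factor of muscle and sensory precursors, had alike differences in its 3 clones. Its signals were 2876, 2831 and 2642 in TET siRNA cultures, against 2465, 2484 and 2270 in control cultures. All TET siRNA arrays exceeded all control arrays, and the clone differences were 0.22, 0.19 and 0.22 for clones 1, 2 and 3. The mean was 0.21 ± 0.09 (SE, limma unadjusted p = 0.0527, adjusted p = 0.759). With the block, the unadjusted p was 0.020 and the adjusted p 0.242. SIX4 was measured by a single tested probe set.

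MEIS1 and MEIS2 are TALE homeobox cofactors of HOX proteins. MEIS1 gave 776, 776 and 800.3 in TET siRNA cultures, against 658, 714 and 718 in control cultures, which do not overlap, and its difference was 0.17 ± 0.12 (SE, limma adjusted p = 0.856). A second, dimmer MEIS1 probe set differed by -0.11. MEIS2 gave 4813, 4297 and 5348 in TET siRNA cultures, against 4588, 4021 and 4798 in control cultures. Its groups overlapped although each clone was higher under TET siRNA, with differences of 0.07, 0.10 and 0.16. PAX9, a factor of tooth and thymus development, gave 744, 816 and 803 in TET siRNA cultures, against 662, 737 and 804 in control cultures. The difference was 0.10 at this probe set and -0.44 at a dimmer one near the filter (geometric mean signal of 129.3).

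On the negative side, TBX2, a T-box repressor, gave 528, 560.3 and 546 in TET siRNA cultures, against 513, 685 and 652 in control cultures, a difference of -0.17 ± 0.16 (SE, limma adjusted p = 0.901). Clone 1 again showed no lower value under TET siRNA, at 0.04. A second tested TBX2 probe set differed by -0.19. Another, just below the filter at a geometric mean signal of 114.3, ran the other way. It differed by 0.97, with all TET siRNA arrays above all control arrays. The dimmest, at 12.2, differed by 1.85 with overlapping groups. SOX9, the regulator of cartilage and testis, gave 590, 454 and 582 in TET siRNA cultures, against 506, 594 and 707 in control cultures. Its 2 tested probe sets disagreed, at -0.15 and 0.36, and neither was called (limma adjusted p = 0.931 and 0.790). IRX5, an Iroquois factor of heart and limb, gave 611, 661 and 623 in TET siRNA cultures, against 632, 736 and 659.9 in control cultures. MSX2, a homeobox factor of skull and limb, gave 955, 642 and 766 in TET siRNA cultures, against 946, 825 and 774 in control cultures. Both had overlapping groups, with differences of -0.09 for IRX5 and -0.12 for MSX2.

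IRX3, an Iroquois factor, and EYA3, a coactivator, were among the brighter members of the group. IRX3 gave 4598, 4809 and 3489 in TET siRNA cultures, against 3534, 5206 and 4847 in control cultures. Its clones went in opposite directions, at 0.38 in clone 1 and -0.47 in clone 3. EYA3 gave 2764, 2951 and 3181 in TET siRNA cultures, against 3038, 3206 and 2933 in control cultures, a difference of -0.05. PAX3, a factor of neural crest and muscle, differed by 0.01, OSR2, a factor of the palate, by 0.06 and FOXF1, a factor of lung and gut mesenchyme, by 0.07. Between treatments DLX5 differed by 0.18, TBX3 by 0.14, EYA4 by -0.15 and MSX1 by -0.13, and their arrays are given with the clones.

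Endoderm, heart and blood factors were measured for 4 of 5 members, all 4 with a lower mean log2 signal under TET siRNA and 0 called in either fit. GATA2, a factor of blood progenitors, gave 823, 647 and 787 in TET siRNA cultures, against 859, 878 and 902 in control cultures. GATA4, a factor of heart and endoderm, gave 578, 736 and 687 in TET siRNA cultures, against 747, 758 and 750.3 in control cultures. Both had all TET siRNA arrays below all control arrays. Their differences were -0.23 ± 0.14 for GATA2 (SE, limma adjusted p = 0.820, or 0.427 with the block) and -0.18 ± 0.14 for GATA4 (SE, limma adjusted p = 0.872, or 0.567 with the block). The low value was carried by clone 2 for GATA2 (-0.44) and by clone 1 for GATA4 (-0.37). The 2 dimmer GATA2 probe sets had differences of 0.12 and 0.28, opposite in sign to the brightest. GATA4 was measured by a single tested probe set. Its other probe sets were all below the filter, at geometric mean signals of 33.0 to 85.8, and differed by -0.81 to 0.12.

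Without overlap between treatments were thus 4 members on the higher side (SIX4, ZIC2, LHX9 and MEIS1) and 2 on the lower side (GATA2 and GATA4) among the 39. Over all tested genes, 6.77% had all TET siRNA arrays above all control arrays and 6.41% had them below. Of 18 members with more than 1 tested probe set, 8 had the same sign at all of them. For the other 10 the sign differed between probe sets. Among these were LHX4, at -0.007 for its brightest probe set, and PAX9, whose dimmer probe set was near the filter. The same count was not made over all tested genes, so it is no result about the members.

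**Figure D4:**
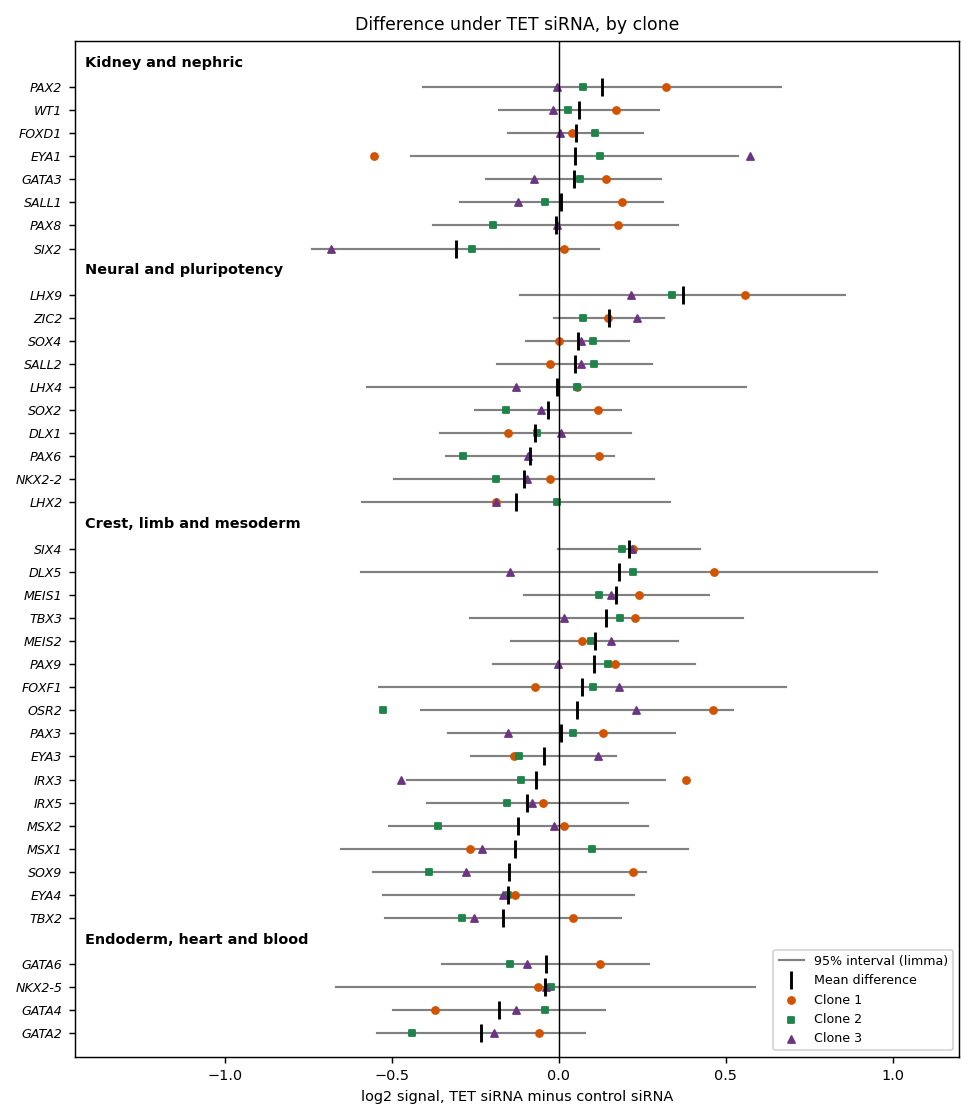
Difference in log2 signal, TET siRNA minus control (horizontal axis), for 39 tested members in 4 role groups, with clone values as coloured symbols, the mean as a black bar and the 95% limma interval as a line. Intervals are from the fit without the clone term and all include 0, while with the clone as a block 2 of 39 (SIX4 and EYA4) exclude it before adjustment.

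Differences between clones were larger than those between treatments for most members. The difference between the highest and lowest of the 3 clone means exceeded the siRNA difference in 33 of 39 members (84.6%, against 77.4% of all tested genes). A range over 3 clones is larger by construction than a difference of 2 groups, so this comparison is a description. In limma's F test of the 2 clone terms, 8 of 39 members were called, against 10.4% of all tested genes. They were MSX1, LHX4, LHX2, EYA4, TBX3, DLX5, NKX2-5 and GATA6, and clone 1 was lowest in 7 of them and highest for GATA6. In simulated data with known changes, fits with clone terms made more false calls than the nominal rate, which limits these calls. Clone 1 was the lowest clone for 27 of 39 members (69.2%), against 46.6% of all tested genes. The same share was 64.3% in relatives of the families, 65.2% in binding partners, 71.4% in neural genes and 90.9% in kidney development genes, so it was not particular to the members.

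MSX1, a homeobox factor of neural crest and limb whose CpG-rich promoter is printed above, had the lowest adjusted p. Its signals were 2710, 5097 and 3949 in the TET siRNA cultures of clones 1, 2 and 3, against 3258, 4763 and 4635 in the control cultures. Clone 1 was lowest under both treatments, the clone range was 0.73 on the log2 scale (1.66-fold) and the limma F test gave an adjusted p of 0.00421. LHX4, a factor of pituitary and motor neurons, gave 917, 1584 and 1273 in TET siRNA cultures, against 883, 1526 and 1392 in control cultures. LHX2, a factor of cortex and eye, gave 1777, 2902 and 2515 in TET siRNA cultures, against 2026, 2915 and 2867 in control cultures. In both genes the 2 arrays of clone 1 were the lowest of the 6, with clone ranges of 0.79 (limma adjusted p = 0.00684) and 0.62 (adjusted p = 0.00729).

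EYA4, a coactivator of ear and heart development, gave 3407, 4681 and 4614 in TET siRNA cultures, against 3736, 5208 and 5182 in control cultures. Its 3 clone differences between treatments were alike, at -0.13, -0.15 and -0.17, and the clone range was 0.47 (limma adjusted p = 0.00810 for clone, 0.346 for treatment with the block). TBX3, a T-box repressor of limb and mammary gland, gave 1827, 2590 and 2248 in TET siRNA cultures, against 1559, 2283 and 2225 in control cultures. The clone range of TBX3 was 0.53 (limma adjusted p = 0.0219). DLX5, a homeobox factor of bone and branchial arches, had the widest range, at 1.06 or 2.08-fold (limma adjusted p = 0.0272). It gave 296, 417 and 498 in TET siRNA cultures, against 214, 358 and 551 in control cultures, and so had its lowest values in clone 1 and its highest in clone 3.

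NKX2-5, the cardiac homeobox factor, followed the same order of clones. It gave 316, 473 and 573 in TET siRNA cultures, against 329.9, 480.1 and 589 in control cultures, a range of 0.85 (limma adjusted p = 0.0302) beside a difference of -0.04 between treatments. GATA6, a factor of endoderm and heart, gave 7513, 5458 and 5442 in TET siRNA cultures, against 6899, 6039 and 5813 in control cultures. Here clone 1 was highest under both treatments, with a range of 0.36 (limma adjusted p = 0.0476). The GATA6 call was lost with quantile normalization, without the filter and with clone terms alone. The 5 called members with a promoter window, namely GATA6, LHX2, MSX1, LHX4 and EYA4, had 25 to 39 CpG in it. The median was 20 over member windows. With 1 value per gene it was 23 over members and 26 over tested genes. The comparison is a description of 5 windows.

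**Figure D5:**
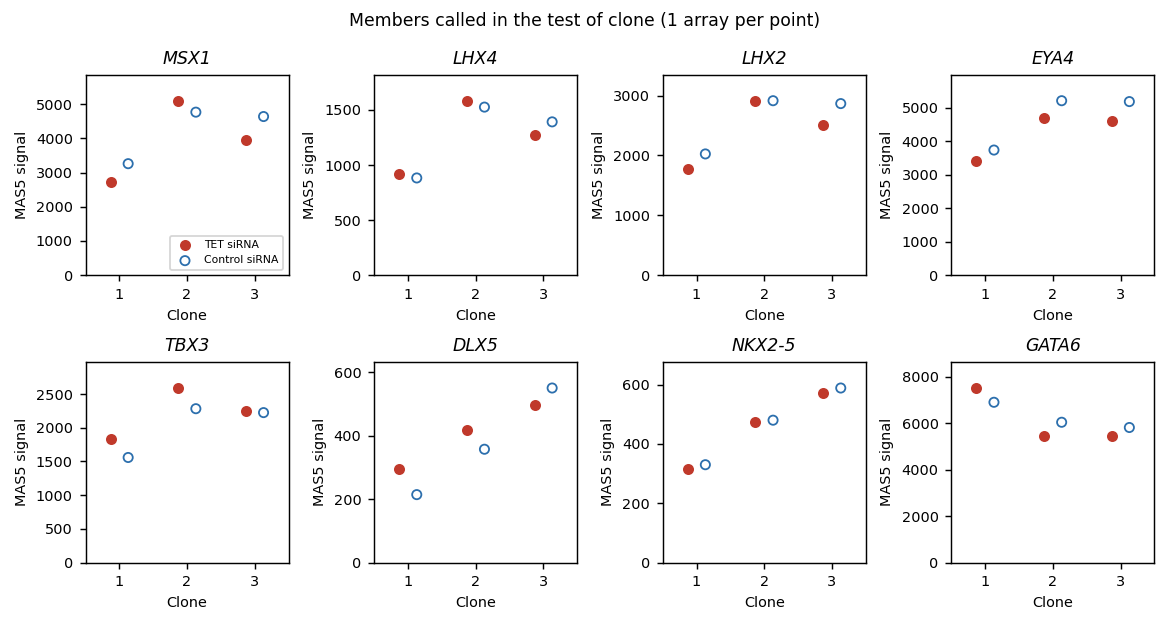
MAS5 signal (linear axes from 0) of the 8 members called in the test of clone, by clone, with the TET siRNA culture filled red and the control culture open blue. Clone 1 is lowest under both treatments in 7 panels and highest for GATA6.

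The clone calls depended on clone 1 and on the trended, robust variance model. Without clone 1, 0 of 40 tested members were called between clones 2 and 3 by limma, with 4 at an unadjusted p under 0.05. Without only its TET siRNA array 0 were called, and without only its control array 1 was called. Without clone 3, and without only its control array, 5 were called. With plain empirical Bayes 0 of 39 were called, with 10 at an unadjusted p under 0.05. DLX5, NKX2-5, TBX3 and GATA6 were not called without the filter, nor with clone terms alone, where EYA4 was not called either. MSX1, LHX2 and LHX4 were called in both of these fits. The dimmer tested probe sets of EYA4, TBX3, MSX1, LHX2 and LHX4 did not pass the clone test (limma adjusted p of 0.143 to 0.915). Treatment differences of the members also varied between clones, with a member median of 0.07 in clone 1, -0.01 in clone 2 and -0.04 in clone 3. The median signal of all non-control probe sets was 131.8 in the TET siRNA array of clone 1, against 122 in its control array. It was 128.6 against 129.3 in clone 2 and 127.4 against 127.7 in clone 3. Whether the member medians only follow this difference between whole arrays was not tested.

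Below the filter were 8 members, whose signals are too dim and scattered to give a difference. OTX2, a homeobox factor of forebrain and midbrain, gave 66.4, 96.6 and 65.5 in TET siRNA cultures, against 60.5, 12.8 and 16.9 in control cultures. These did not overlap, but all 6 values were below 117.2, the lowest geometric mean signal tested. OSR1, a factor of intermediate mesoderm, gave 138, 152 and 128 in TET siRNA cultures, against 24.3, 137 and 93.5 in control cultures. LHX1, a factor of the nephric duct, and OTX1, a factor of the forebrain, had geometric means of 99.2 and 49.4. SALL4, a pluripotency factor, was at 33.1, SOX1, a neural progenitor factor, at 24.2, SOX11, a factor of immature neurons, at 22.6, and SOX17, a factor of endoderm, at 22.3. The 50 dim member probe sets also include dimmer probe sets of tested members. When all probe sets were tested without the filter, their lowest adjusted p was 0.886 in limma, or 0.488 with the block. The value of 0.488 was that of a probe set of TBX2, a tested member. Among the gene-level probe sets of the 8 members, the lowest limma adjusted p with the block was 0.534 (OTX2).

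Genes related to the members were read from the same fits, in 4 lists chosen with earlier results of these data known. Relatives of the same families had 28 tested of 58 named, 11 with a higher and 17 with a lower mean log2 signal under TET siRNA, a median of -0.09, and 0 called in either fit. Without the clone term, 3 of the 28 (10.7%) had an unadjusted limma p under 0.05, against 6.96% of all tested genes. With the block, 4 of the 28 (14.3%) did, against 16.1% of all tested genes. The 3 without the clone term were SOX5 and SOX6, which act in cartilage and glia, and SOX13. SOX5 differed by 0.40 ± 0.15 (SE, limma adjusted p = 0.700, or 0.140 with the block), SOX6 by 0.53 ± 0.19 (adjusted p = 0.700, or 0.173 with the block) and SOX13 by 0.48 ± 0.19 (adjusted p = 0.726, or 0.278 with the block). All 3 had every TET siRNA array above every control array. Among the 28 relatives this held for 4, against 6.77% of all tested genes, and the reverse held for 1, against 6.41%. Other SOX relatives had a difference of the opposite sign, SOX15 at -0.48, SOX3 at -0.42 and SOX8 at -0.27, so the tested SOX relatives ran in both directions. The clone test called 2 of the 28, ISL1, a LIM homeobox factor, and TBX1, a T-box factor, against 10.4% of all tested genes. ISL1 had clone means of 43.7, 1361 and 93.4 for clones 1, 2 and 3. Its means in clones 1 and 3 were below 117.2, the lowest geometric mean signal tested. ISL1 thus passed the filter only through clone 2, and its call is a description.

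Binding partners such as PBX, TLE and LDB proteins had 23 tested of 27 named, 14 higher and 9 lower, with 0 called in either fit. PKNOX1, a MEIS-related cofactor, differed by 0.23 (limma adjusted p = 0.769) and TLE5, a corepressor relative, by -0.59 (adjusted p = 0.795, with 1 of 3 clones higher). Of 20 kidney development genes 11 were tested, 8 higher and 3 lower, with 0 called in either fit, and the lowest p was that of NOTCH2, a Notch receptor, with a log2 difference of 0.19 (limma adjusted p = 0.773). Of 17 neural progenitor and neuron genes 7 were tested, 4 higher and 3 lower, with 0 called in either fit. NEFL, the light neurofilament chain, differed by -0.19 (limma adjusted p = 0.80) and POU3F2, a POU factor of neural progenitors, by 0.28 (adjusted p = 0.891). In these lists the clone test called PBX2, then BMP7, ITGA8, CITED1 and JAG1 of the kidney genes, and POU3F2, POU3F3, TUBB3 and PROX1 of the neural genes. These are 1 of 23, 4 of 11 and 4 of 7 tested genes in that order, against 10.4% of all tested genes. Clone 1 had the lowest mean in all of these called genes except TUBB3, where it was highest. Over all tested genes it was lowest in 46.6%.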

How the data were processed

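Total RNA from 6 cultures of Flp-In T-REx 293 cells was hybridised to one-colour Affymetrix arrays. The deposited values are linear intensities, 1 MAS5 signal per probe set and array. The submitters' processing notes name MAS5 and no version. After trimming 2% of probe sets at each end, every array had a mean of 1000, so the authors had scaled the intensities before deposit, and no normalization was added. MAS5 works array by array and leaves dim probe sets noisy. Signals of different probe sets do not rank transcripts. Neither detection calls nor scanner files were used.

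The 54675 probe sets include 62 controls, which were left out. Of the other 54613, 41091 had 1 gene in the platform annotation, 1801 several and 11721 none. Tests used the brighter 50%, ranked by log2 signal averaged over the 6 arrays (27307 probe sets, geometric mean signal of at least 117.2). TET siRNA was compared with control on log2 signals in limma 3.58.1 (R 4.3.3), with trended, robust empirical Bayes moderation and no clone term, two-sided, with Benjamini-Hochberg adjustment over all tested probe sets and an adjusted p under 0.05 as the threshold. Clones were compared with the F test of the 2 clone terms in the fit with group and clone. The replicate number is the clone number of the labels and so pairs the arrays. The 2 arrays of a clone deviated from their group means with correlations of 0.493, 0.234 and 0.236, and arrays of different clones with correlations of up to 0.219. A clone term lowered the median residual SD on the log2 scale to 0.13, against 0.20 in the fit that lacks it. In simulated data with known changes, on which the steps were tested, the fits with clone terms made more false calls than the nominal rate.

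Array correlations of log2 signal were 0.972 to 0.986. Promoter windows are those of RefSeq on GRCh38.p14, matched by symbol, and plots were drawn with matplotlib 3.10.9. Members, gene lists and tests were chosen with earlier results of these data known. Named are TET1 to TET3, every member passing a test, the 10 brightest members, the 10 tested members of smallest p in each direction, every member below the filter and, per other list, up to 4 passing genes or the 2 of smallest p. EYA1, PAX2, PAX3, PAX8, GATA3, SALL1, SOX2, DLX1, NKX2-2, OSR2 and FOXF1, SOX13, and further clone calls fall outside that rule and were added after their values were seen.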

Additional observations from a re-analysis of the deposited data

How the results depend on the processing

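The count of 0 called members held under every alternative run: the clone as a replicate block, no filter on dim probe sets, the upper 30%, a pseudocount of 36.1, quantile normalization, plain empirical Bayes, the mean of all tested probe sets, the brightest probe set without a cross-hybridisation suffix, and each array or clone left out. The lowest adjusted p in any of them was 0.242, with the replicate block. Over all probe sets, 4 were called without the clone term, against 282 with the replicate block, 14 for the upper 30%, 1 with plain empirical Bayes and 0 to 131 with an array or clone left out, 131 being without replicate 1. The median member difference of -0.01 ranged from -0.0863 (without control replicate 1) to 0.0731 (without TET siRNA replicate 1), and 27 of 39 members changed sign under at least 1 alternative. Quantile normalization shifted the median of all probe sets by -0.02 on the log2 scale. The clone calls, 8 in the fit reported, numbered 4 without the filter, 3 with clone terms alone, 0 with plain empirical Bayes and 0 to 9 with an array or clone left out (0 without replicate 1, 9 without replicate 2, 5 without replicate 3), the last chosen after seeing the data. The cause was not tested. Dim probe sets, near or below a signal of 117.2, limit what can be said of the 8 members below the filter.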
